A study of Mus musculus with 18 samples.

Results

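The 34 genes described here are 18 genes of the amino acid response and 16 genes of the endoplasmic reticulum (ER). The 18, called ATF4 target genes here, are targets of the transcription factor ATF4 together with Atf4 itself. The 16, called ER genes, serve protein folding, except the transcription factor gene Xbp1 and the degradation gene Herpud1. All 34 were listed by name with earlier results of these data known, and were matched by gene symbol in a table of 24455 gene symbols for 168FARN and a table of 24532 for LLC1. All 34 were found in both tables and all 34 passed the filter on low counts, which kept 13540 genes in 168FARN and 12873 in LLC1. The RNA came from cancer cells grown as hanging-drop spheroids, alone or with 3 fibroblasts per cancer cell, that carried GFP and were sorted from the spheroids by the study's methods. 168FARN, a mouse breast cancer line, was grown alone, with WT or with sgPrrx1 cancer-associated fibroblasts (CAFs) from tumours of MMTV-PyMT mice. LLC1, a mouse lung cancer line, was grown alone, with WT or with sgPrrx1 fibroblasts taken from dorsal wounds of mice at day 10, called wound healing fibroblasts. WT fibroblasts carried the control guide sgNS and sgPrrx1 fibroblasts had Prrx1 deleted by CRISPR/Cas9, so no gene of the cancer cells was edited and Prrx1 in these libraries checks no label. Each line is a single cell line, and line, fibroblast source and count table changed together, so they cannot be told apart. With 3 libraries in each of 6 groups there were 18 libraries, and no source used here says that the 3 came from separate cultures, so p-values measure only the spread between these libraries, which may be technical. The question was how the cancer cells' amino acid and ER genes stood after coculture and after loss of Prrx1 in the partner cells.

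ATF4 is translated when phosphorylation of the initiation factor eIF2alpha slows protein synthesis, which happens on amino acid shortage and on ER stress, and it then raises genes for amino acid synthesis, uptake and transfer RNA charging. ER chaperones are raised mainly by other arms of the unfolded protein response, through ATF6 and spliced XBP1, when unfolded protein builds up in the ER. Both programmes are known in cancer cells, where they set the supply of serine, glycine, asparagine and cysteine and the capacity for secretion.

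Promoters are shown for 7 genes, each with a motif match, to show the promoter motifs each arm is known for. Mthfd2, Ddit4, Sesn2, Sdf2l1 and Dnajb9, whose values are also given by library below, held no match in the same bases. Each is the run of 250 bases before the transcript start in RefSeq annotation of GRCm38.p6, 5′ to 3′ on the strand of the gene, and capitals mark matches to the motifs searched. The C/EBP-ATF response element (CARE) was searched as TGATGNAA, the ER stress response element (ERSE) as CCAAT and CCACG with 9 bases between, ERSE-II as ATTGG and CCACG with 1 base between, and the unfolded protein response element (UPRE) as TGACGTGG, each on both strands. The positions are chr2:119350992-119351241 (plus strand) for Chac1, chr3:50443614-50443863 (minus) for Slc7a11, chr6:7693210-7693459 (minus) for Asns, chr2:34771840-34772089 (plus) for Hspa5, chr10:86705445-86705694 (minus) for Hsp90b1, chr8:84846932-84847181 (minus) for Calr and chr8:94386179-94386428 (plus) for Herpud1.
Chac1: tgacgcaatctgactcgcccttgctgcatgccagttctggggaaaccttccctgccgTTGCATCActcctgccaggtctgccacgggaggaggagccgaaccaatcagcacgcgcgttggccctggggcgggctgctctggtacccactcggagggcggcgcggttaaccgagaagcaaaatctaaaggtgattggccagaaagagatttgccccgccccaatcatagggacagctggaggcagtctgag
Slc7a11: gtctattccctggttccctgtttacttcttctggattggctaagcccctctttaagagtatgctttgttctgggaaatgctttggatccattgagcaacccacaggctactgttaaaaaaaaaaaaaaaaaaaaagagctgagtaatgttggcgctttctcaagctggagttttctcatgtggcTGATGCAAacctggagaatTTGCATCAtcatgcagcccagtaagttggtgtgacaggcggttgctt
Asns: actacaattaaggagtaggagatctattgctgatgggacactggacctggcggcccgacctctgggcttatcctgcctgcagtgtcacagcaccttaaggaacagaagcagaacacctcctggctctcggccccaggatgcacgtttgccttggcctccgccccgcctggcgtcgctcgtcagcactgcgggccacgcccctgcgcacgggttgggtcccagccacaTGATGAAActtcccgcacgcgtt
Hspa5: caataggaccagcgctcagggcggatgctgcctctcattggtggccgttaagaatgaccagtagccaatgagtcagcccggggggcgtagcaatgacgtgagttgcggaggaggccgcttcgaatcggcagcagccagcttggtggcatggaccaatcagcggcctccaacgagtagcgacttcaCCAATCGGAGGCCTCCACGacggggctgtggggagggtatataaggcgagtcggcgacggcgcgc
Hsp90b1: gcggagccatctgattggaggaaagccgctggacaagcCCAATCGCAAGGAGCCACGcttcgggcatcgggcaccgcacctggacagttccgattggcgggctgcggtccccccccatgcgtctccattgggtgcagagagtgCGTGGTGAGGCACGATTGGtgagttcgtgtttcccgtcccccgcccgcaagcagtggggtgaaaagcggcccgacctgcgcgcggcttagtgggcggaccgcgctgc
Calr: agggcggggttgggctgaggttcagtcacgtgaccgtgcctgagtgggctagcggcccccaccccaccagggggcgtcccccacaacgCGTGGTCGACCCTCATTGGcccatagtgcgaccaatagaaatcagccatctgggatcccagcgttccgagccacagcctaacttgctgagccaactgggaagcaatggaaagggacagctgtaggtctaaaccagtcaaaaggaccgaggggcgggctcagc
Herpud1: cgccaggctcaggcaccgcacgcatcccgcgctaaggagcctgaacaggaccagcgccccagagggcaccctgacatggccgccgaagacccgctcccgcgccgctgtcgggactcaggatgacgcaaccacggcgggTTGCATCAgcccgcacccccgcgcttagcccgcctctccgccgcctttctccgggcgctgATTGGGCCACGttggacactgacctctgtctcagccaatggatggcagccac

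A promoter was found for 31 of the 34 genes, and Manf, Hyou1 and Slc7a5 had none in the table. Over the 250 bases before and 50 bases after the start, CARE was present in 5 of 17 ATF4 target genes (Asns, Chac1, Slc7a11, Trib3 and Vldlr) and in 1 of 14 ER genes (Herpud1), against 3.97% of 32851 promoters. Promoters on chr18 were left out of these shares. ERSE was present in 7 of 14 ER genes (Calr, Canx, Creld2, Dnajc3, Hsp90b1, Hspa5 and Pdia6) and in 0 of 17 ATF4 target genes, against 0.119% of the 32851 promoters. ERSE-II was present in 2 ER genes (Dnajb11 and Herpud1), against 0.0365%, and UPRE in none of the 31, against 0.676%. A match says only that these letters are in the window, and the absence of one says nothing about the factor. Hsp90b1 held 2 ERSE matches and Slc7a11 held 2 CARE matches, and Herpud1 held both an ERSE-II and a CARE match.

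Library totals ran from 48315037 to 68933002 counts in 168FARN and from 66129117 to 103997557 in LLC1, and no replicate pair was as alike as counting noise would make it (chi-square per degree of freedom at least 10.6). The coefficient of variation between replicates beyond counting noise, estimated by edgeR, was 0.0728 for 168FARN against 0.228 for LLC1. One LLC1 library, sgPrrx1 replicate 3, stood apart, with a score of 73.7 on the first principal component against scores from -22.0 to 0.42 for the other 8. Its deviation from its group followed transcript length (Spearman's rho -0.70) and GC content (rho 0.56) across 9866 genes, which share a library and are not replicates. Other LLC1 libraries followed length about as closely (alone replicate 3 at -0.712), but the SD of its deviation was 0.911 on the log2 scale against 0.221 to 0.492 for the rest. Without it the coefficient of variation of LLC1 was 0.112, so results of LLC1 that rest on it are also given without it. Level is in CPM, a read count relative to the TMM-scaled library total. A call is an adjusted p below 0.05 in edgeR's quasi-likelihood test over all genes of the line.

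The sorted cells were checked against marker genes. In 168FARN, Krt8 was at 331 to 419 CPM in group means while Epcam did not exceed 0.069 CPM and Cdh1 did not exceed 0.0205 CPM. In LLC1 the 13 epithelial markers summed to between 0.77 and 2.66 CPM and the lung epithelial markers Nkx2-1, Sftpc, Sftpb and Scgb1a1 had 0 counts in every group, so neither line carried the full marker set of its labelled tissue. Summed over 22 fibroblast genes, 168FARN libraries held 378 to 384 CPM alone, 1654 to 1755 CPM in WT coculture and 499.8 to 511 CPM in sgPrrx1 coculture, and LLC1 libraries 2265 to 2361, 1745 to 1803 and 2144 to 2244 CPM. Among the collagen genes, Col1a1 went from 3.74 ± 0.36 CPM alone to 161 ± 11.5 in WT and 10.4 ± 0.207 in sgPrrx1 coculture of 168FARN (SD, n = 3), and from 0.375 ± 0.141 to 8.60 ± 1.77 and 0.681 ± 0.147 in LLC1. In WT coculture against alone, 18 of 20 fibroblast genes tested were called higher and 1 lower in 168FARN, and in LLC1, where Col1a1 rose and the sum was lower, 4 of 16 were higher and 4 lower. Over all genes 33.4% were called higher and 30.7% lower in that comparison of 168FARN, and 4.25% and 4.58% in LLC1. The lower LLC1 sum was mostly Col3a1, at 1579 ± 39.5 CPM alone, 1077 ± 12.3 in WT and 1440.6 ± 28.2 in sgPrrx1 coculture. Of 6 leukocyte genes only Cd68 exceeded 2 CPM in a group mean, at 16.2 ± 0.704 CPM alone, 36.6 ± 0.946 in WT and 46.0 ± 15.2 in sgPrrx1 coculture of LLC1, and at 23.9 ± 0.741, 14.8 ± 1.51 and 14.0 ± 0.559 CPM in 168FARN. Csf1r was called higher than alone in both cocultures of 168FARN, at 0.348 ± 0.106, 1.24 ± 0.154 and 1.39 ± 0.218 CPM, and Ptprc, Itgam, Adgre1 and Cd3e did not exceed 0.0473 CPM. Of 4 endothelial genes, Cdh5 went from 0.277 ± 0.131 CPM alone to 5.94 ± 0.712 in WT and 3.90 ± 0.284 in sgPrrx1 coculture of 168FARN, while Pecam1 did not exceed 0.344 CPM, Tek did not exceed 0.0754 CPM and Emcn had 0 counts. Fap was at or near 0 in all groups, with a highest mean of 0.0166 CPM. Marker genes moved with the groups in which members changed, and their part in the members' values was not tested. In bulk RNA, fewer cells of a type and less RNA per cell cannot be told apart.

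Over the 3 libraries of each group alone, and per kilobase of transcript, Atf4 itself was the most abundant of the ATF4 target genes in both lines, at 281 ± 1.67 CPM per kb in 168FARN and 265 ± 15.6 CPM per kb in LLC1 (SD, n = 3). The serine synthesis gene Psat1 was the next, at 243 ± 2.11 and 168 ± 3.26 CPM per kb. In LLC1 its neighbour Phgdh was at 168 ± 12.3 CPM per kb, so the order of the pair was within their spread. The least abundant were Slc7a11 in 168FARN at 5.02 ± 0.0757 CPM per kb and Vldlr in LLC1 at 0.0062 ± 0.007 CPM per kb. Of the ER genes, Calr was the most abundant in 168FARN at 631 ± 16.5 CPM per kb, above Hsp90b1 at 589 ± 14.7, Hspa5 at 588 ± 17.9 and Pdia3 at 569.9 ± 8.20 CPM per kb, and the libraries of the last 3 overlapped. Hspa5 was the most abundant in LLC1 at 1180.3 ± 28.6 CPM per kb, ahead of Hsp90b1 at 772 ± 9.66 CPM per kb.

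**Figure D1:**
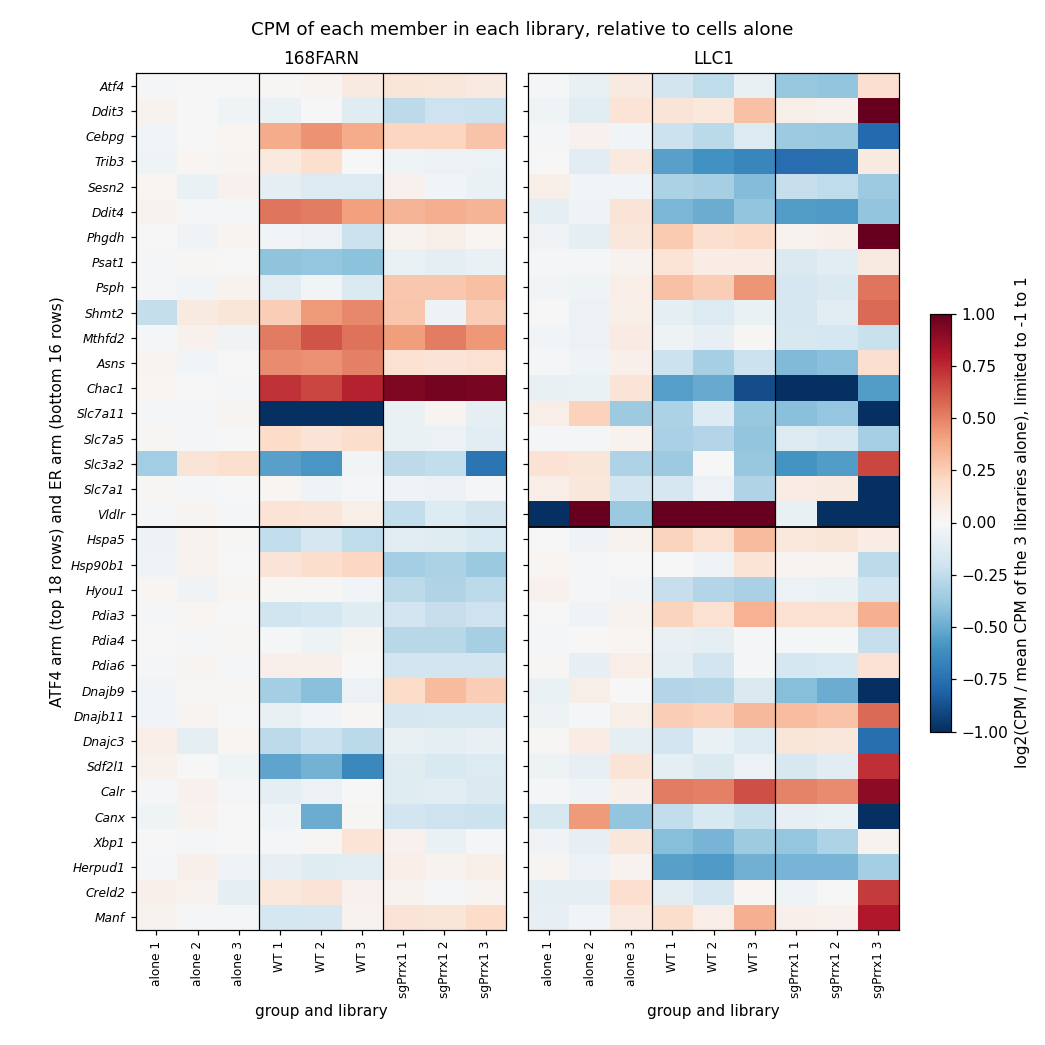
Each cell of the 2 panels is one library, coloured by log2 of its CPM over the mean CPM of the 3 libraries alone of that line (scale limited to -1 to 1), for the 18 ATF4 target genes above the line and the 16 ER genes below it. In 168FARN the blue Slc7a11 row in WT coculture and the red Chac1 row in both cocultures stand out, and in LLC1 the sgPrrx1 replicate 3 column differs from its 2 replicates. The LLC1 row of Vldlr rests on at most 9 counts per library alone.

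In 168FARN cells grown with WT CAFs, the amino acid genes split. Chac1, whose product degrades glutathione, rose by 0.72 on the log2 scale and the mitochondrial folate enzyme gene Mthfd2 rose by 0.56, while Slc7a11, the cystine importer, fell by 1.21 and Psat1 fell by 0.40. Of the ER genes, Sdf2l1, an ER protein that works with DnaJ co-chaperones, fell by 0.55 and the Hsp90 of the ER, Hsp90b1, rose by 0.17. In all, 12 of 18 ATF4 target genes were called, 8 higher and 4 lower, and 7 of 16 ER genes, 1 higher and 6 lower. The background was 64.1% of genes called in either direction, 33.4% higher and 30.7% lower, so the ATF4 target count was near that of all genes and the ER count lay below it. The median log2 fold change was 0.07 over the ATF4 target genes and -0.08 over the ER genes, beside 0.01 over all genes tested.

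The master regulator gene was almost level. Atf4 was at 481, 485 and 487 CPM alone, 489, 494 and 516 in WT and 526, 525 and 514 in sgPrrx1 coculture. The groups alone and WT did not overlap, yet the difference of 0.04 (SE 0.0238) was not called (adjusted p = 0.126 in edgeR). For sgPrrx1 against WT the log2 fold change was 0.06 (SE 0.0238) with an adjusted p of 0.0392 in edgeR, the groups overlapped, and the call was lost with library totals in place of TMM (adjusted p = 0.702) and with an offset for length and GC content of the transcript (adjusted p = 0.983). Against alone, Atf4 in sgPrrx1 coculture was higher by 0.11 (SE 0.0238), with an adjusted p of 0.00316 in edgeR. Ddit3, which encodes the stress factor CHOP, was at 106, 104 and 101 CPM alone, 99.1, 103 and 95.3 in WT and 86.7, 90.0 and 89.5 in sgPrrx1 coculture. All sgPrrx1 libraries lay below all others, and the log2 fold change was -0.23 (SE 0.0351) against alone and -0.16 (SE 0.0351) against WT, at adjusted p values in edgeR of 0.000319 and 0.00209. With the offset the value against WT was -0.41, and WT against alone turned from -0.06, not called, to 0.13 (adjusted p = 0.00217). Ddit3 overlaps Mars1 and Mbd6 in the annotation, so its reads are uncertain where the counting could split them.

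The other regulators did not move as a group. Cebpg, a partner of ATF4 in DNA binding, had a log2 fold change of 0.40 with WT CAFs against alone and -0.16 in sgPrrx1 against WT coculture, and Ddit4, an inhibitor of mTORC1, had a log2 fold change of 0.48 and -0.14, all 4 called. Sesn2, another inhibitor of mTORC1, had a log2 fold change of -0.12 and 0.11, both called at adjusted p values in edgeR of 0.015 and 0.0295, and neither call held with library totals (adjusted p = 0.0587 and 0.252). Trib3, a pseudokinase that dampens CHOP activity, had a log2 fold change of 0.09 (not called) and -0.14 (called).

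Slc7a11 had the largest change of any member in 168FARN. Its libraries held 45.9, 45.9 and 47.1 CPM alone, 19.9, 19.5 and 20.6 in WT and 44.3, 47.3 and 43.5 in sgPrrx1 coculture. All WT libraries lay below all others, while the sgPrrx1 and alone libraries overlapped. The log2 fold change was -1.21 (SE 0.0385) for WT against alone with an adjusted p of 7.5e-10 in edgeR, 1.17 (SE 0.0385) for sgPrrx1 against WT with 2.41e-09, and -0.04 (SE 0.0371) for sgPrrx1 against alone with 0.39. The comparisons share the WT libraries, and their values are given side by side only.

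Chac1 rose in both cocultures. Its values were 58.8, 57.8 and 57.4 CPM alone, 95.7, 92.0 and 98.7 in WT and 111, 112 and 112 in sgPrrx1 coculture. No group overlapped another, with WT between alone and sgPrrx1. The log2 fold change against alone was 0.72 (SE 0.0301) in WT coculture and 0.95 (SE 0.0301) in sgPrrx1 coculture, and 0.23 (SE 0.0297) between the cocultures, where edgeR gave adjusted p values of 6.57e-09, 1.14e-09 and 5.82e-05. Chac1 and Slc7a11, both of which carry a CARE match in the promoters printed above and both of which bear on glutathione, thus moved in opposite directions in WT coculture, and in sgPrrx1 against WT coculture both were higher.

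**Figure D2:**
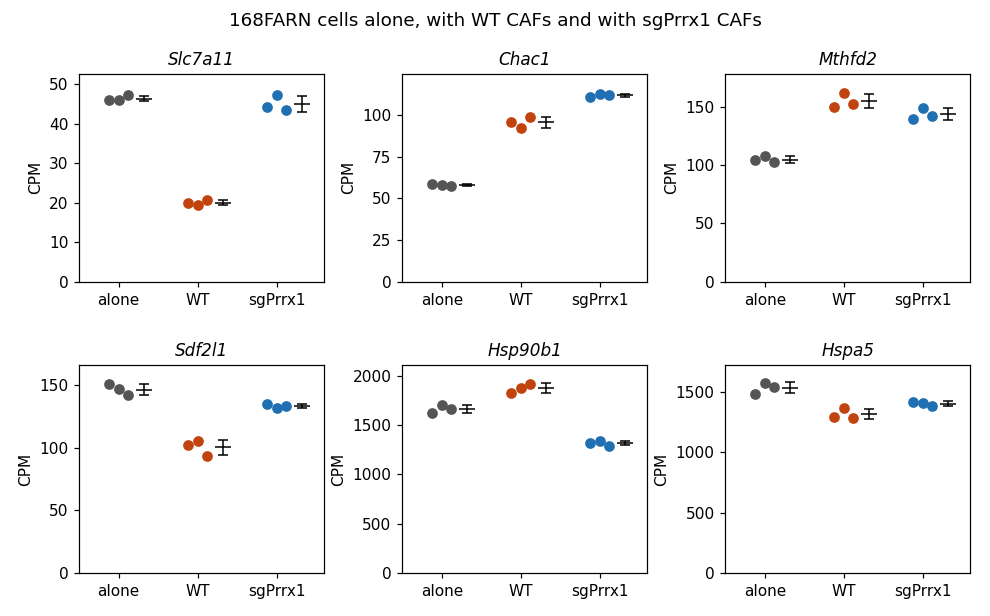
CPM (vertical axes from 0) of 6 members in the 9 libraries of 168FARN, with a point per library and the mean ± SD (n = 3) as a bar to the right of each group. Slc7a11 was at 19.5 to 20.6 CPM in WT coculture and above 43 CPM in every other library, and Hsp90b1 was highest in WT and lowest in sgPrrx1 coculture.

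The enzymes of serine and one-carbon metabolism also differed among themselves. Mthfd2 was at 104, 108 and 103 CPM alone, 150.1, 162 and 153 in WT and 139.7, 149 and 142 in sgPrrx1 coculture. Both cocultures lay above the cells alone, and WT lay above sgPrrx1. The fitted log2 fold change was 0.56 (SE 0.0393) for WT and 0.45 (SE 0.0393) for sgPrrx1 against alone, at adjusted p values in edgeR of 3.27e-07 and 3.5e-06. For sgPrrx1 against WT it was -0.11 (SE 0.0391) (adjusted p = 0.0321 in edgeR), a call that was lost without WT replicate 2 (-0.07, adjusted p = 0.136) and without sgPrrx1 replicate 1 (-0.09, 0.108) or 3 (-0.10, 0.0825).

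Along the serine pathway, Psat1, the aminotransferase of the second step, had a log2 fold change of -0.40 with WT CAFs against alone and 0.33 in sgPrrx1 against WT coculture, both called. Psph, the phosphatase of the last step, had a log2 fold change of -0.09 and 0.37, also both called, but the first call was lost with the offset for length and GC content (adjusted p = 0.994). Psph overlaps Cct6a. Phgdh, the enzyme of the first step, had a log2 fold change of -0.10 (not called) and 0.13 (called, adjusted p = 0.0213 in edgeR), the latter lost with library totals (0.08, adjusted p = 0.132). Shmt2, which splits serine into glycine in mitochondria and overlaps Ndufa4l2, had a log2 fold change of 0.39 with WT CAFs against alone (called) and -0.22 between the cocultures (not called). So Psat1 and Psph were lower in WT coculture than alone while the mitochondrial folate genes Mthfd2 and Shmt2 were higher, and all 3 serine synthesis genes were higher in sgPrrx1 than in WT coculture.

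Asns, which makes asparagine, had a log2 fold change of 0.48 with WT CAFs against alone and -0.33 in sgPrrx1 against WT coculture, both called. Of the transporters other than Slc7a11, Slc7a5, the light chain of the leucine carrier, had a log2 fold change of 0.16 and -0.24, both called. Its heavy chain gene Slc3a2 had a log2 fold change of -0.36 and -0.03 and was called in none of the 3 comparisons of 168FARN. Slc3a2 had a within-group SD of 0.291 on the log2 scale, larger than that of 97.8% of 10876 genes, with values alone of 231, 322 and 329 CPM. The arginine and lysine carrier Slc7a1 had a log2 fold change of -0.01 and -0.03, not called (SE 0.0272 and 0.0272), but with the offset both were called, at -0.15 and 0.14 (adjusted p = 0.000337 and 0.000769). Vldlr, a lipoprotein receptor, had a log2 fold change of 0.10 and -0.29, both called, the first of which was lost with the offset (adjusted p = 0.41).

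With sgPrrx1 CAFs against WT CAFs, 15 of 18 ATF4 target genes of 168FARN were called, 7 higher and 8 lower, and 12 of 16 ER genes, 6 higher and 6 lower. The background was 60% in either direction, 26.9% higher and 33.1% lower. Both shares, 83.3% and 75%, were above that of all genes, with calls in each direction, and the medians were -0.07 and -0.05 beside -0.03 over all genes. Against cells alone, sgPrrx1 coculture had 11 ATF4 target genes called (7 higher, 4 lower) and 11 ER genes (2 higher, 9 lower), with medians of 0.01 and -0.13 beside 0.00 over all genes and a background of 49.7% in either direction, 25.7% higher and 24.1% lower. Lower calls among the ER genes, 9 of 16, were thus more frequent than among all genes, and their log2 fold changes lay between -0.34 and -0.12.

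**Figure D3:**
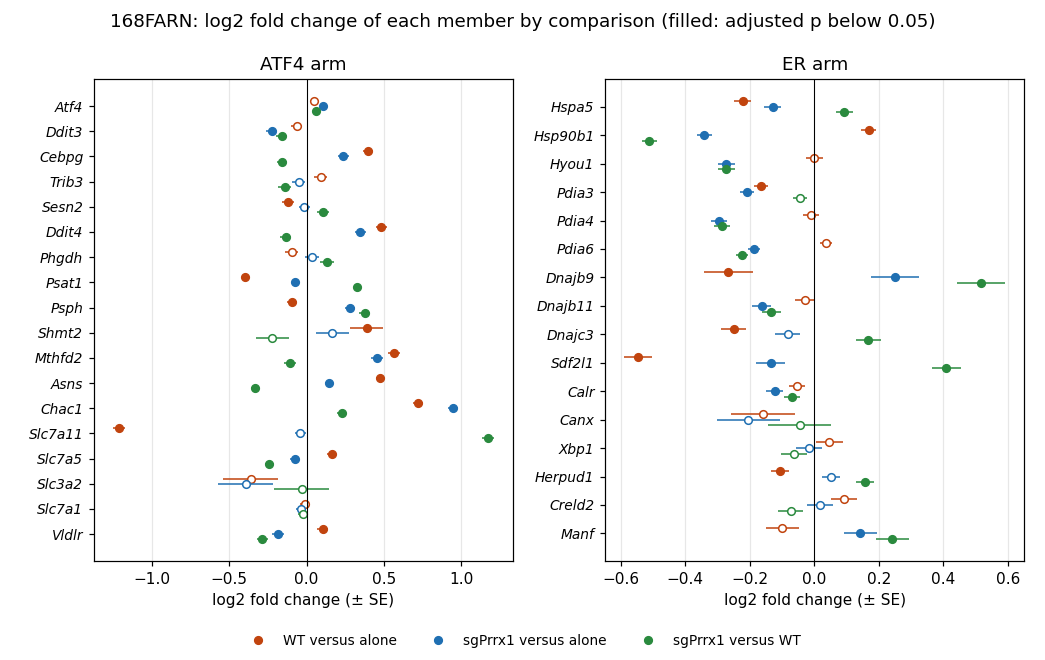
Log2 fold change ± SE (horizontal axes, one scale per panel) of each member in the 3 comparisons of 168FARN, with filled points for an adjusted p below 0.05. Slc7a11 spans -1.21 to 1.17, the widest of the 34, and of the ER genes Hsp90b1 lies at -0.51 and Dnajb9 at 0.52 for sgPrrx1 against WT.

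Among the ER genes of 168FARN the most abundant chaperones went separate ways. Hspa5, which encodes BiP, the Hsp70 of the ER and the sensor-binding chaperone of the unfolded protein response, was at 1486, 1578 and 1546 CPM alone, 1297, 1368 and 1289.8 in WT and 1420.0, 1415 and 1382 in sgPrrx1 coculture. All WT libraries lay below all others. On the log2 scale the fold change was -0.22 (SE 0.0265) for WT against alone (adjusted p = 2.44e-05 in edgeR) and 0.09 (SE 0.0265) for sgPrrx1 against WT (adjusted p = 0.0106), the latter lost with library totals (adjusted p = 0.178). Hsp90b1 was at 1623, 1706 and 1665 CPM alone, 1822, 1877 and 1918 in WT and 1319, 1333 and 1289.6 in sgPrrx1 coculture. Its libraries were highest in WT and lowest in sgPrrx1 coculture, with no overlap. Fitted in edgeR, the log2 fold change was 0.17 (SE 0.023) for WT against alone, -0.51 (SE 0.0231) for sgPrrx1 against WT and -0.34 (SE 0.023) for sgPrrx1 against alone, where edgeR gave adjusted p values of 6.49e-05, 2.32e-08 and 4.69e-07. Both promoters printed above hold ERSE matches.

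Of the co-chaperone genes, Sdf2l1, Dnajb9 and Dnajc3 were lower in WT coculture than alone. Sdf2l1 was at 151, 147 and 142 CPM alone, 102, 106 and 93.6 in WT and 135, 132 and 133 in sgPrrx1 coculture. WT lay lowest and sgPrrx1 next, with no overlap. The log2 fold change was -0.55 (SE 0.0438) for WT against alone (adjusted p = 9.99e-07 in edgeR) and 0.41 (SE 0.0438) for sgPrrx1 against WT (1.23e-05), and with the offset for length and GC content the latter was 0.23. Dnajb9, a DnaJ co-chaperone induced by XBP1, was at 43.7, 44.9 and 44.9 CPM alone, 35.1, 33.4 and 42.8 in WT and 50.6, 55.3 and 52.9 in sgPrrx1 coculture. WT replicate 3 lay just below the cells alone and the sgPrrx1 libraries lay above both. The fitted log2 fold change was -0.27 (SE 0.0752) for WT against alone, 0.52 (SE 0.0747) for sgPrrx1 against WT and 0.25 (SE 0.0745) for sgPrrx1 against alone, where edgeR gave adjusted p values of 0.00915, 0.000125 and 0.0164. With the offset the first was -0.02 (adjusted p = 0.822), so that call depended on it, and the second was 0.28.

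Dnajc3, a co-chaperone that also inhibits the eIF2alpha kinase PERK, had a log2 fold change of -0.25 with WT CAFs against alone and 0.17 in sgPrrx1 against WT coculture, both called. Dnajb11, which delivers clients to BiP, had a log2 fold change of -0.03 (not called) and -0.13 (called). The protein disulfide isomerase gene Pdia4 had a log2 fold change of -0.28 and Pdia6, which overlaps Atp6v1c2, -0.22 in sgPrrx1 against WT coculture, both called, and neither was called in WT coculture against alone. Pdia3 had a log2 fold change of -0.16 with WT CAFs against alone (called) and -0.04 between the cocultures (not called). Hyou1, the large Hsp70 of the ER, had a log2 fold change of -0.27 in sgPrrx1 against WT coculture (called), and -0.14 with the offset.

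Of the lectin chaperones that fold glycoproteins, Calr had a log2 fold change of -0.05 (not called) and -0.07 (called, adjusted p = 0.0313 in edgeR), with that call lost in limma voom (adjusted p = 0.0649). Canx was called in none of the 3 comparisons and its WT values were 799, 585 and 830.1 CPM, the second far below the others. Xbp1, the transcription factor gene of this arm, was at 76.6, 75.8 and 76.8 CPM alone, 75.9, 77.1 and 83.8 in WT and 78.5, 72.8 and 75.3 in sgPrrx1 coculture. The groups overlapped, and its log2 fold changes of 0.05 (SE 0.0411), -0.06 (SE 0.0411) and -0.02 (SE 0.0412) (WT against alone, sgPrrx1 against WT and sgPrrx1 against alone) were not called. The counts give no measure of XBP1 splicing.

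Herpud1, of ER-associated degradation, had a log2 fold change of -0.11 and 0.16 in the first 2 of those comparisons, both called, the first of which was lost with the offset (adjusted p = 0.0674). Of the proteins that are secreted on ER stress, Manf had a log2 fold change of -0.10 (not called) and 0.24 (called), and Creld2 had a log2 fold change of 0.09 and -0.07, neither called. In sgPrrx1 against WT coculture, then, the chaperones and isomerases Hsp90b1, Hyou1, Pdia4, Pdia6, Dnajb11 and Calr were lower, and Hspa5, Dnajb9, Dnajc3, Sdf2l1, Herpud1 and Manf were higher.

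Some smaller calls of 168FARN were lost when a library was left out, while the fold changes kept their sign with each of the 9 left out. For sgPrrx1 against WT, Atf4 lost its call without sgPrrx1 replicate 1 or 2 or WT replicate 1 or 2, Sesn2 without sgPrrx1 replicate 1 or 2 or WT replicate 2 or 3, Phgdh without sgPrrx1 replicate 1 or 2, and Calr without sgPrrx1 replicate 1 or 3 or WT replicate 3, with adjusted p values from 0.0504 (Phgdh) to 0.148 (Sesn2) in edgeR. For WT against alone, Psph lost its call without alone replicate 3 or WT replicate 1 or 3, Sesn2 without alone replicate 3, and Vldlr without alone replicate 1 or 3 or WT replicate 1 or 2, with adjusted p values from 0.0553 (Sesn2) to 0.109 (Vldlr). For sgPrrx1 against alone, Manf and Slc7a5 lost theirs without any one library of those 2 groups, Sdf2l1 without alone replicate 1 or 2 or sgPrrx1 replicate 2 or 3, and Dnajb9 without alone replicate 1 or sgPrrx1 replicate 2, with adjusted p values from 0.0567 (Dnajb9) to 0.142 (Slc7a5), and their log2 fold changes stayed within 0.12 to 0.16, -0.09 to -0.06, -0.16 to -0.12 and 0.22 to 0.28. Without WT replicate 3, the ER genes called for WT against alone numbered 12 in place of 7.

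Across genes of 168FARN, the fold change also ran with transcript length. Over 11848 genes with a matched length, Spearman's rho between length and log2 fold change was 0.246 for WT against alone and -0.333 for sgPrrx1 against WT, a description across genes that share libraries. The median log2 fold change for WT against alone was -0.16 in the shortest of 5 equal bins of transcripts and 0.14 in the longest. Slc7a11, with 9227 bases the longest transcript of the 34, fell in WT coculture while the median of the longest bin lay above 0, and with the offset its log2 fold change was -1.22. Sdf2l1, with 1108 bases among the shortest, fell while the median of the shortest bin lay below 0, and with the offset its value was -0.41. In LLC1, over 11176 genes, rho with length was -0.281 for WT and -0.412 for sgPrrx1 against alone, and for sgPrrx1 against WT it was -0.232, with a rho of 0.656 with GC content.

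In LLC1 cells grown with WT wound healing fibroblasts, the ATF4 target genes that were called were mostly lower. Ddit4 fell by 0.45 on the log2 scale, Sesn2 by 0.36 and Slc7a5 by 0.34, and Vldlr, which is barely expressed in LLC1, was higher. Of the ER genes, Calr rose by 0.56 and Herpud1 fell by 0.53. In all 4 of 18 ATF4 target genes were called, 1 higher and 3 lower, and 2 of 16 ER genes, 1 higher and 1 lower, against a background of 8.83% in either direction, 4.25% higher and 4.58% lower. The medians were -0.19 and -0.09 beside -0.02 over all genes. Without sgPrrx1 replicate 3, which is in neither group compared, 10 ATF4 target genes (3 higher, 7 lower) and 8 ER genes (4 higher, 4 lower) were called, with the background at 44.2%, 22% higher and 22.2% lower. Without any one library of the alone or WT groups, 0 of the 18 ATF4 target genes were called in edgeR, and 0 ER genes without alone replicate 1 or 3 or WT replicate 1 or 2, while the share of all genes called was between 2.09% and 3.05%. With any of the 9 libraries left out, the log2 fold change of Ddit4 stayed between -0.49 and -0.35, that of Sesn2 between -0.38 and -0.32 and that of Calr between 0.51 and 0.61.

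Against cells alone, LLC1 in sgPrrx1 coculture had 2 ATF4 target genes called, both lower, and 2 ER genes, 1 higher and 1 lower. The background was 4.32% in either direction, 2.01% higher and 2.31% lower, and the medians were -0.21 and -0.06 beside -0.01 over all genes. Without sgPrrx1 replicate 3 there were 8 ATF4 target genes called, all lower, and 5 ER genes, 2 higher and 3 lower, with a background of 26.7%, 12.5% higher and 14.2% lower. The 8 were Atf4, Cebpg, Trib3, Sesn2, Ddit4, Asns, Chac1 and Slc3a2, with log2 fold changes between -1.08 and -0.23. Without any other single library, 0 of 18 and 0 of 16 were called in edgeR, with 0.398% to 1.61% of all genes called. Same-numbered libraries of these 2 groups deviated together, and with the replicate number as a block 1 ATF4 target gene was called in place of 2, with Chac1 at -0.90 (adjusted p = 0.0563) and a background of 2.96%.

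Between sgPrrx1 and WT coculture of LLC1, 0 of 18 ATF4 target genes and 0 of 16 ER genes were called by edgeR's quasi-likelihood test, against a background of 0.0544%. At an unadjusted p below 0.05 there were 2 ATF4 target genes (Cebpg and Vldlr) and 0 ER genes, beside 1545 of all 12873 genes. DESeq2 called 1 and 0 (3.9% of all genes), and limma voom with sample weights 13 and 4 (36.4%). The voom weight of sgPrrx1 replicate 3 was 0.0247, against 0.421 to 3.36 for the other LLC1 libraries, so that library counted for little there. Without sgPrrx1 replicate 3, Vldlr, Psat1 and Psph were called, all lower in sgPrrx1 coculture, and 0 ER genes, with a background of 5.69%, 2.94% higher and 2.75% lower. Their log2 fold changes were then -4.68, -0.23 and -0.49, where edgeR gave adjusted p values of 0.0415, 0.0438 and 0.0181. The fold change of 13 of the 34 members then had the other sign, and for sgPrrx1 against alone that of 7, none of them called with or without that library.

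Atf4 in LLC1 was at 449, 434 and 486 CPM alone, 402, 383 and 433 in WT and 351, 346 and 510.0 in sgPrrx1 coculture. WT lay below alone with no overlap, and sgPrrx1 replicate 3 lay above all other libraries while its 2 replicates were the lowest of the line. On the log2 scale the fold change was -0.17 (SE 0.156) for WT against alone and -0.18 (SE 0.156) for sgPrrx1 against alone, neither called, and without sgPrrx1 replicate 3 the latter was -0.38 (SE 0.0737) with an adjusted p of 0.00678 in edgeR. Ddit3 was at 94.5, 90.2 and 107 CPM alone, 106, 105 and 119 in WT and 101, 100.0 and 207 in sgPrrx1 coculture. Alone and WT overlapped, sgPrrx1 replicate 3 was the highest, and no comparison of LLC1 called Ddit3, with a log2 fold change of 0.18 (SE 0.265) for WT against alone.

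Chac1 had lower values in both cocultures of LLC1 than alone. Its values were 13.5, 13.5 and 15.5 CPM alone, 9.66, 9.97 and 7.67 in WT and 6.73, 6.60 and 9.62 in sgPrrx1 coculture. Neither coculture overlapped the cells alone. Fitted in edgeR, the log2 fold change was -0.64 (SE 0.174) for WT against alone (adjusted p = 0.0585 in edgeR, not called) and -0.89 (SE 0.175) for sgPrrx1 against alone (0.0319). Without sgPrrx1 replicate 3 both were called, at -0.63 (adjusted p = 0.0024) and -1.08 (adjusted p = 0.000879) in edgeR.

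Ddit4 was at 121, 125 and 140.3 CPM alone, 93.9, 91.2 and 97.6 in WT and 87.5, 86.9 and 98.1 in sgPrrx1 coculture. Both cocultures lay below the cells alone with no overlap. The log2 fold change was -0.45 (SE 0.0951) for WT and -0.50 (SE 0.0952) for sgPrrx1 against alone, at adjusted p values in edgeR of 0.0254 and 0.0297, and the first call was lost with the offset for length and GC content (adjusted p = 0.139). Sesn2 was at 56.4, 53.0 and 53.1 CPM alone, 43.6, 43.2 and 40.1 in WT and 46.2, 45.5 and 42.0 in sgPrrx1 coculture. It too lay lower in both cocultures with no overlap, and its log2 fold change of -0.36 (SE 0.0845) for WT against alone had an adjusted p of 0.037 in edgeR, which the offset moved to -0.16 (adjusted p = 0.311). Slc7a5, at -0.34 with an adjusted p of 0.0486, was likewise lost with it (-0.18, adjusted p = 0.172).

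Vldlr is named here because of its values, which fall under the 100 mean counts asked of genes shown by library. It had 0, 9 and 3 counts alone, 46, 60 and 53 counts in WT coculture and 5, 0 and 0 counts in sgPrrx1 coculture, or at most 0.795 CPM in any library. WT lay above both other groups. The fitted log2 fold change of 3.75 (SE 0.887) for WT against alone rests on 12 counts in the cells alone. The same gene in 168FARN had 129, 133 and 129 CPM alone, 143, 142 and 136 in WT and 110.2, 119 and 115 in sgPrrx1 coculture, a level of more than 100 CPM in every group.

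Of the metabolic enzymes of LLC1, Asns had a log2 fold change of -0.25 and Mthfd2 -0.04 for WT against alone, neither called, and without sgPrrx1 replicate 3 Asns was called at -0.24. Psat1, Psph and Phgdh had log2 fold changes of 0.10, 0.33 and 0.20, none called, and the last 2 were called without that library at 0.34 and 0.22. Slc7a11 was at 128, 144 and 95.0 CPM alone, 98.2, 112 and 93.7 in WT and 91.1, 93.4 and 40.5 in sgPrrx1 coculture. The groups alone and WT overlapped, sgPrrx1 lay below both, and no comparison with all 9 libraries called it. At 40.5 CPM, sgPrrx1 replicate 3 lay below every other LLC1 library for Slc7a11. Against the mean of the other 2 sgPrrx1 libraries, members in that library ran from 0.262 times (Canx) to 2.38 times (Slc3a2). Vldlr, at 0 CPM in that library, is left out of this range.

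**Figure D4:**
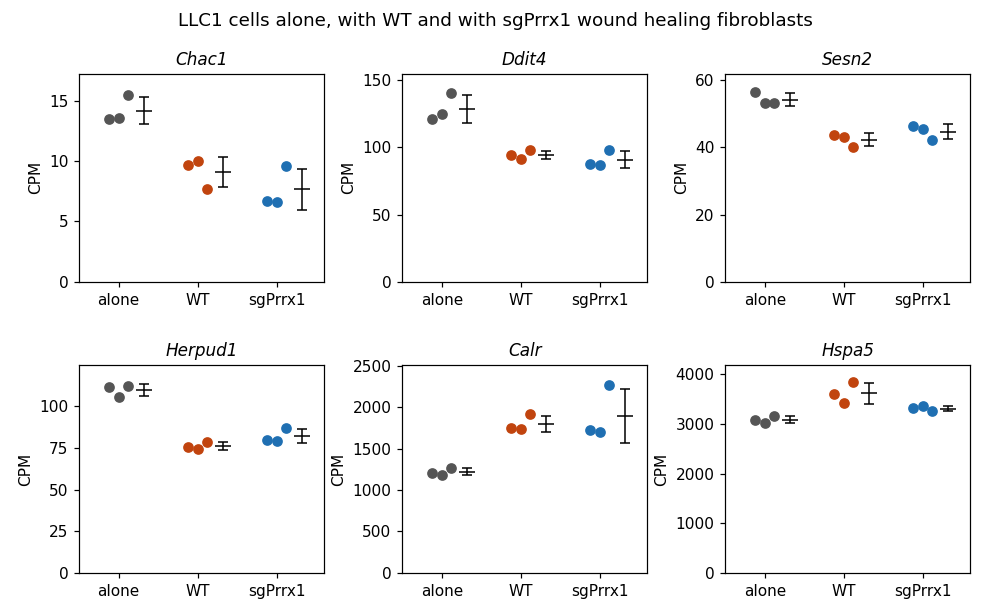
CPM (vertical axes from 0) of 6 members in the 9 libraries of LLC1, with a point per library and the mean ± SD (n = 3) as a bar to the right of each group. Chac1, Ddit4, Sesn2 and Herpud1 are lower in every coculture library than in every library alone, Calr is higher, and sgPrrx1 replicate 3 has the highest Calr value at 2269 CPM.

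Of the ER genes of LLC1, Calr was at 1211, 1187 and 1265 CPM alone, 1743, 1736 and 1913 in WT and 1719.8, 1696 and 2269 in sgPrrx1 coculture. Every coculture library lay above every library alone. The fitted log2 fold change was 0.56 (SE 0.126) for WT and 0.63 (SE 0.126) for sgPrrx1 against alone, at adjusted p values in edgeR of 0.0316 and 0.0333. Herpud1 was at 112, 106 and 112 CPM alone, 75.4, 74.3 and 78.9 in WT and 79.6, 79.5 and 86.8 in sgPrrx1 coculture. It moved the other way, with no overlap, at -0.53 (SE 0.0819) and -0.42 (SE 0.0818) for WT and sgPrrx1 against alone (adjusted p = 0.00889 and 0.0304 in edgeR). Without sgPrrx1 replicate 3 the log2 fold changes of sgPrrx1 against alone were 0.49 for Calr, -0.46 for Herpud1 and -0.55 for Ddit4, all called.

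Hspa5 was at 3079.8, 3012 and 3161 CPM alone, 3601, 3419 and 3835 in WT and 3316, 3361 and 3254 in sgPrrx1 coculture. Both cocultures lay above the cells alone and WT above sgPrrx1, with no overlap, but the log2 fold change of 0.23 (SE 0.0795) for WT against alone was not called with all 9 libraries (adjusted p = 0.115 in edgeR). It was called under 5 of 18 alternatives, among them DESeq2, limma voom and leaving out sgPrrx1 replicate 3 (adjusted p = 0.0027 in edgeR for the last). Xbp1 was at 102, 98.7 and 113 CPM alone, 77.8, 76.0 and 81.9 in WT and 80.3, 84.8 and 107 in sgPrrx1 coculture. WT lay below all libraries alone, and its log2 fold change was -0.42 (SE 0.124), not called (adjusted p = 0.0779) but called under 6 of 18 alternatives, without that library at -0.40 (adjusted p = 0.00161). The other ER genes not called for WT against alone with all 9 libraries but called without that one were Hyou1 at -0.27, Dnajb9 at -0.23, Pdia3 at 0.26 and Dnajb11 at 0.28, and each was called under 3 to 5 of the 18 alternatives. Hsp90b1 had a log2 fold change of 0.04 for WT against alone and -0.10 for sgPrrx1 against WT in LLC1, and neither was called.

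The response to WT coculture differed between the lines for 17 of the 34 genes. The difference was tested as an interaction, the log2 fold change in LLC1 minus that in 168FARN, in a joint fit of 18 libraries over 14344 genes. Of the ATF4 target genes 10 were called, 7 of them lower and 3 higher in LLC1, and of the ER genes 7, 4 higher and 3 lower. The background was 29.4% in either direction, 13.7% higher and 15.7% lower. Chac1 had an interaction of -1.35 (SE 0.17) with an adjusted p of 2.7e-05 in edgeR, with a rise in 168FARN and a lower mean, not called, in LLC1. Ddit4, which rose in 168FARN and fell in LLC1, had -0.93 (SE 0.0932), and Asns, which rose in 168FARN and was not called in LLC1, had -0.73 (SE 0.153). Mthfd2, Cebpg, Trib3 and Slc7a5 also had a lower fold change in LLC1. Slc7a11, Psat1 and Vldlr had a higher one. The call of Slc7a11 was lost without most single libraries, left out in turn, and that of Trib3 without some.

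Among the ER genes the interaction was 0.61 (SE 0.116) for Calr (adjusted p = 0.000935 in edgeR), 0.45 (SE 0.0779) for Hspa5, 0.41 (SE 0.0835) for Pdia3 and 0.30 (SE 0.0887) for Dnajb11, and it was -0.46 (SE 0.122) for Xbp1, -0.42 (SE 0.0756) for Herpud1 and -0.28 (SE 0.0827) for Hyou1. Hspa5 and Pdia3 were called lower than alone in WT coculture of 168FARN, and in LLC1 had fold changes of 0.23 and 0.24, not called with all 9 libraries and called under 5 and 4 of 18 alternatives. The calls of Dnajb11 and Hyou1 were lost without some single libraries. Without LLC1 sgPrrx1 replicate 3, 15 ATF4 target genes and 10 ER genes were called, with a background of 52.5%.

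**Figure D5:**
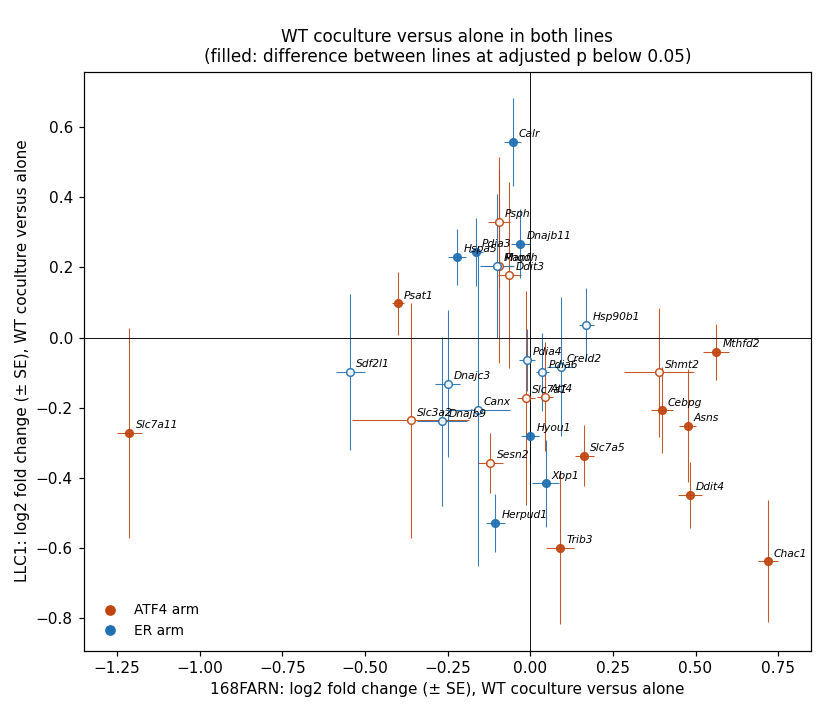
Log2 fold change ± SE of WT coculture against alone in 168FARN (horizontal) and LLC1 (vertical) for 33 of the 34 members, with filled points where the interaction was called. Vldlr, at 3.75 in LLC1, lies outside the range and is left out. Chac1, Ddit4, Asns, Cebpg and Mthfd2 lie to the lower right, and Calr and Hspa5 to the upper left.

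The change from WT to sgPrrx1 coculture differed between the lines for 5 ATF4 target genes, 1 higher and 4 lower in LLC1, and 4 ER genes, 2 higher and 2 lower, against a background of 19.3% in either direction, 11% higher and 8.24% lower. The interaction was -1.61 (SE 0.33) for Slc7a11 (adjusted p = 0.00307 in edgeR), -0.62 (SE 0.181) for Psph, -0.50 (SE 0.0762) for Psat1 and 0.35 (SE 0.0905) for Slc7a5. That of Vldlr rests on the few counts given above. Of the ER genes it was -1.01 (SE 0.278) for Dnajb9, -0.24 (SE 0.0779) for Hspa5, 0.40 (SE 0.111) for Hsp90b1 and 0.43 (SE 0.0828) for Hyou1. Without LLC1 sgPrrx1 replicate 3 the counts were 9 and 7, with a background of 44.6%. With the offset for length and GC content, Dnajb9 lost its call (-0.48, adjusted p = 0.126) and so did Slc7a5 (0.14, 0.299). Hspa5 lost its call without most single libraries, left out in turn, and Psph and Hsp90b1 without some.

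Other genes of these pathways were read from lists of further members. In 168FARN, 15 of 17 aminoacyl-tRNA synthetase genes, which charge transfer RNAs and are known ATF4 targets in part, were called higher in WT coculture than alone and 0 lower, with a median of 0.28. Tars, the threonine enzyme and the largest change of the list, went from 202 ± 1.65 to 300.5 ± 7.26 CPM (SD, n = 3), a log2 fold change of 0.57 (SE 0.0258) with an adjusted p of 1.17e-08 in edgeR. In sgPrrx1 against WT coculture 13 of the 17 were called lower and 0 higher, with Eprs at -0.39. In LLC1, 1 of the 17 was called in WT coculture against alone, Rars at 0.58, which was higher, and without sgPrrx1 replicate 3 there were 10, 4 higher and 6 lower. Over all genes tested in 168FARN, 33.4% were called higher and 30.7% lower for WT against alone and 26.9% and 33.1% for sgPrrx1 against WT. The LLC1 background was 8.83%, or 44.2% with that library left out.

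Of 24 further ATF4 targets tested in 168FARN, 14 were higher with WT CAFs than alone and 3 lower, with a median of 0.33, and with sgPrrx1 against WT CAFs 3 were higher and 13 lower, beside backgrounds of 33.4% higher and 30.7% lower, and 26.9% and 33.1%. Atf3, a stress-induced repressor, had the largest change, from 0.233 ± 0.139 CPM alone to 3.49 ± 0.312 CPM in WT and 0.815 ± 0.164 CPM in sgPrrx1 coculture. In LLC1, where 23 were tested, 1 was higher with WT fibroblasts than alone and 7 lower, and without sgPrrx1 replicate 3 there were 3 higher and 15 lower (background 8.83%, and 44.2% without it). Atf3 went from 82.1 ± 5.31 CPM alone to 41.0 ± 0.857 in WT and 38.0 ± 8.68 in sgPrrx1 coculture. Stc2, the one higher with all 9 libraries, had 0 counts in every library alone and 0.625 ± 0.15 CPM in WT coculture.

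Of 20 genes for translocation into the ER, 15 were lower with WT CAFs than alone and 3 higher in 168FARN, with a median of -0.24, and with sgPrrx1 against WT CAFs 12 were higher and 5 lower, where 30.7% of all genes were lower and 33.4% higher in the first comparison and 26.9% higher and 33.1% lower in the second. Ssr4, a subunit of the translocon-associated complex, was the largest at -0.64 and 0.76. Of 21 genes of ER-associated degradation and other folding, 6 were higher and 11 lower in WT coculture. The largest was Serpinh1, the collagen chaperone, at 0.488 ± 0.219 CPM alone, 51.8 ± 1.79 CPM in WT and 7.67 ± 0.335 CPM in sgPrrx1 coculture, which moved with the collagen genes given above. In LLC1, WT against alone, edgeR called 0 of the 20 and 0 of the 21 with all 9 libraries, and 3 and 3 had an unadjusted p below 0.05, beside 24.2% of all genes. Without sgPrrx1 replicate 3, 9 translocation genes were higher and 0 lower, and 2 of the other list were higher and 6 lower, against 22% of all genes higher and 22.2% lower (8.83% in either direction with all 9 libraries).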

How the data were processed

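RNA of sorted cancer cells was prepared with the TruSeq RNA kit v2 and read as paired reads of 100 bases, and the submitters' processing notes name Trimmomatic, STAR, HTSeq and the mm10 build. The authors deposited whole-number counts per gene, 1 table per line, with 9 libraries in each and 0 columns of other samples. Strand and annotation are not given in the sources used here. The study's methods for bulk RNA-seq name a batch correction by ComBat-seq, which also returns whole numbers, without saying which tables it was applied to, so the counts may have been adjusted and the spread between libraries with them. Groups came from the sample labels. Reads of overlapping genes (Hspa5 with Rabepk, Pdia3 with Catsper2 and Cebpg with Gm45095, beside those named in the text) are uncertain.

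Each line was fitted with edgeR 4.0.16 in R 4.3.3 on all its genes, with TMM scaling, edgeR's filter on low counts, the quasi-likelihood test and Benjamini-Hochberg adjustment over all genes tested. The joint fit of both lines dropped 27 symbols per table that had turned into dates. Alternatives were DESeq2 1.42.0, limma 3.58.1 (voom with sample weights), other scaling and filters, only the groups compared, a replicate block, an offset for length and GC content of the transcript, and each library left out. Tables were read with Python 3.11.15, pandas 2.3.3 and numpy 2.4.6 and drawn with matplotlib 3.10.9. The scripts were tested on simulated data, with a spread for LLC1 near that without sgPrrx1 replicate 3 and no outlying library. The simulated data held no trend with transcript length or GC content, so the test does not cover those features of the LLC1 libraries. Replicate numbers come from the labels, which name no shared culture or day. Deviations of same-numbered libraries correlated at 0.131, 0.249 and 0.419 between alone and sgPrrx1 of LLC1, the one pair of groups with all 3 over 0.1 (the others ran from -0.0734 to 0.242).

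Genes shown by library were Atf4, Ddit3, Xbp1 and Hspa5 and, per arm and line, up to 3 called genes with the largest change among those with a mean of at least 100 counts. The members, lists and this rule were chosen with earlier results of these data known. Total counts ran from 48315037 to 103997557 per library, which limits genes with few counts. Promoters were taken from RefSeq (GRCm38.p6), and 31 members matched a promoter. Transcript lengths and GC content were those of the longest protein-coding transcript of each gene symbol in GENCODE M1.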

Additional observations from a re-analysis of the deposited data

Results flagged for a closer look

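The change from cells alone to WT coculture differed between LLC1 and 168FARN for 17 members by the test of the interaction in edgeR (adjusted p below 0.05 over 14344 genes). Values are the log2 fold change in LLC1 minus that in 168FARN. For the ATF4 target genes it was -1.354 for Chac1, -0.9303 for Ddit4, -0.7257 for Asns, -0.6866 for Trib3, -0.6023 for both Cebpg and Mthfd2, -0.4973 for Slc7a5, 0.5009 for Psat1, 0.9451 for Slc7a11 and 3.643 for Vldlr, the last on few counts in LLC1. For the ER genes it was -0.4614 for Xbp1, -0.4209 for Herpud1, -0.2768 for Hyou1, 0.2995 for Dnajb11, 0.4108 for Pdia3, 0.4539 for Hspa5 and 0.6132 for Calr. Calls of Slc7a11, Trib3, Dnajb11 and Hyou1 were lost without some single libraries: Slc7a11 without any one library other than LLC1 alone replicate 2 and the LLC1 sgPrrx1 libraries, Trib3 without 9 of the 18, Dnajb11 without 168FARN alone replicate 2, WT replicate 1 or 2 or LLC1 alone replicate 1, and Hyou1 without 168FARN alone replicate 2, LLC1 alone replicate 1 or LLC1 WT replicate 3. That of Hyou1 was also lost with the offset for transcript length and GC content, at -0.07.

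The change from WT to sgPrrx1 coculture differed between the lines for 9 members. The difference was -4.729 for Vldlr, -1.611 for Slc7a11, -0.6191 for Psph, -0.4972 for Psat1 and 0.3538 for Slc7a5. For the ER genes it was -1.008 for Dnajb9, -0.2389 for Hspa5, 0.3961 for Hsp90b1 and 0.4277 for Hyou1. Of these, Hspa5 lost its call without 13 of the 18 libraries, one at a time, Psph without 8, and Hsp90b1 without LLC1 WT replicate 2. Cell line, fibroblast source and count table changed together between the lines, so what the differences go with cannot be told apart.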

How the results depend on the processing

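Counts of members called in 168FARN stayed within 1.5 times under every alternative other than leaving out a library. Those of LLC1 did not. For WT against alone in LLC1, the ATF4 target count of 4 was 16 in limma voom, 9 with only the 2 groups compared, 2 with RLE factors, 1 with at least 10 counts in every library and 1 with no filter, and the ER count of 2 was 10 in limma voom, 8 with only the 2 groups, 7 in DESeq2 and 5 with the offset for transcript length and GC content. For sgPrrx1 against alone, the ATF4 target count of 2 was 13 in limma voom, 4 in DESeq2, 4 with the offset and 0 with only the 2 groups, and the ER count of 2 was 8, 6 and 0 in limma voom, with the offset and with only the 2 groups. For sgPrrx1 against WT, limma voom called 13 and 4, and DESeq2 and the offset 1 ATF4 target gene each. In the joint fit, limma voom called 17 and 11 for WT against alone and 10 and 9 for sgPrrx1 against WT, and the offset 9 and 7 for the latter. The share of all genes called moved as well. For WT against alone in LLC1 it was 8.83%, against 58.6% in limma voom, 40.7% with only the 2 groups, 23.9% with the offset, 17.7% in DESeq2, 9.11% with RLE factors, 8.28% with at least 10 counts and 5.43% with no filter. For sgPrrx1 against alone it was 4.32%, against 48% in limma voom, 23.5% with the offset, 15.1% in DESeq2 and 0.215% with only the 2 groups, and for sgPrrx1 against WT 0.0544%, against 36.4% in limma voom, 3.9% in DESeq2 and 0.311% with the offset. In the joint fit limma voom called 60.6% and 54.9%, and the offset 25.4% for the latter. The offset was chosen after seeing the data. The cause of these changes was not tested.

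With single libraries left out, ATF4 target and ER counts ran in 168FARN from 9 to 13 and 7 to 12 (WT against alone), 10 to 12 and 8 to 12 (sgPrrx1 against alone) and 11 to 16 and 11 to 13 (sgPrrx1 against WT). In LLC1 they ran from 0 to 10 and 0 to 8, 0 to 8 and 0 to 5, and 0 to 3 and 0 to 0. In the joint fit they ran from 8 to 15 and 5 to 10 (WT against alone) and from 4 to 9 and 3 to 7 (sgPrrx1 against WT). The share of all genes called then ran in 168FARN from 59.1% to 62.7%, 43.0% to 50.9% and 54.4% to 59.0%, in LLC1 from 2.09% to 44.2%, 0.398% to 26.7% and 0.0229% to 5.69%, and in the joint fit from 24.3% to 52.5% and 14.9% to 44.6%. The highest LLC1 and joint counts were those without LLC1 sgPrrx1 replicate 3.

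The direction turned for 15 values of single members that were called with or without the alternative, and for 154 that were called in neither. With the offset, these were Atf4 (-0.000827) and Slc7a1 (0.14) for sgPrrx1 against WT and Ddit3 (0.13) and Psph (0.00032) for WT against alone in 168FARN, and Ddit3 (-0.18) in the joint fit. In limma voom they were Asns (-0.19), Phgdh (-0.18), Slc3a2 (-0.28), Slc7a1 (0.24) and Trib3 (-0.18) for sgPrrx1 against WT and Shmt2 (-0.13) for sgPrrx1 against alone in LLC1, and Phgdh (-0.29) and Slc7a1 (0.28) in the joint fit. Without LLC1 sgPrrx1 replicate 3 the latter were -0.33 and 0.25, and over single libraries left out Phgdh ran from -0.33 to 0.33 and Slc7a1 from -0.25 to 0.25.

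Correlations between same-numbered libraries were all over 0.1 in LLC1 between alone and sgPrrx1 and in no other pair of groups. With a replicate block, LLC1 had 2 ATF4 target genes called for WT and 1 for sgPrrx1 against alone (7.99% and 2.96% of all genes), and the other counts stayed within 1.5 times.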

Other observations

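Members differed in their spread between replicates. In 168FARN, Shmt2 had a within-group SD of 0.172 on the log2 scale, larger than that of 93.6% of 10876 genes, and Canx one of 0.162 (92.6%), beside a median of 0.0553. In LLC1 without sgPrrx1 replicate 3, Canx had an SD of 0.27 (larger than 94.8% of 11003 genes), Slc7a11 one of 0.211 (90.9%) and Slc3a2 one of 0.21 (90.8%), beside a median of 0.0892.

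The sensors and feedback genes upstream of both arms were read from further lists. Of 9 genes for the eIF2alpha kinases and their feedback, 3 were higher with WT CAFs than alone and 5 lower in 168FARN, with Impact, an inhibitor of the amino acid sensor GCN2, at -0.43. Of 8 sensors of the unfolded protein response, 5 were higher and 1 lower in WT coculture of 168FARN and with sgPrrx1 against WT CAFs 1 was higher and 7 were lower. Creb3l1, an ER-bound transcription factor, had the largest change, at 3.37 and -2.86 on the log2 scale. In LLC1, WT against alone, Eif2s1, which encodes eIF2alpha, was higher at 0.54 and Mbtps1, the protease that cleaves ATF6, was lower at -0.47, each the one call of its list with all 9 libraries. With sgPrrx1 replicate 3 left out, 6 of the 9 (2 higher, 4 lower) and 4 of the 8 (2 higher, 2 lower) were called. The share of all genes called was 64.1% (WT against alone) and 60% (sgPrrx1 against WT) in 168FARN, and for WT against alone in LLC1 8.83%, or 44.2% without that library.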
